A study of Homo sapiens with 8 samples.

Results

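Gene expression before any treatment was compared between 4 human cancer cell lines, using the 4 untreated libraries of a series of 8 RNA-sequencing libraries. These 4 libraries were taken by their labels, and no measured value was used to choose them. The lines are called 549, A375, A498 and H1703 in the labels, which give lung cancer as the origin of 549 and H1703, skin as the origin of A375 and kidney as the origin of A498. The other 4 libraries come from the same lines cultured with IFN-gamma at 20 ng/ml, with a time of 72 hours in the labels, and served here only to ask whether a difference between untreated lines was seen again. All lines grew in RPMI medium with 10% serum, and the labels name no genetic change made to any of them. Each line and arm is 1 library, so no untreated value has a replicate, and no test was possible on the untreated libraries alone. The untreated libraries held 6991610 (549), 9291154 (A375), 6750962 (A498) and 7101076 (H1703) counts.

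Cultured tumour lines keep part of the gene programme of the tissue they came from and add changes that follow their driver mutations. As background, A375 is an established melanoma line with an activating BRAF mutation, A498 an established clear cell kidney carcinoma line without functional VHL, and H1703 an established lung cancer line with amplified PDGFRA, and none of these genotypes was measured here. Melanocytes descend from the neural crest and depend on the transcription factors SOX10 and MITF, kidney tubule cells on PAX2 and PAX8, and most epithelia on cadherin and keratin junctions. Interferon-stimulated genes form a further programme: secreted interferons signal through JAK kinases to transcription factors that bind a short DNA element in the promoters of antiviral genes. The level of those genes in cells given no interferon is commonly called basal interferon tone.

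Counts were converted to CPM, a unit scaled to the size of each library, with TMM factors that adjust for the library's overall makeup, and 15855 of 24462 genes with at least 10 counts in 1 or more untreated libraries were kept. A gene was called higher in a line when its log2 CPM (prior count 2) lay at least 4-fold above that of the highest other untreated line, and lower when it lay at least 4-fold below that of the lowest other line. Both are rules of size on single libraries and not tests. Ratios between 2 libraries are given with exact 95% binomial intervals, which cover counting error only. Where 1 of the libraries had 0 counts, the fold was computed with 3 counts in its place and is written as at least that size. A gene kept through its counts in 1 line alone had to differ, so a share of kept genes past the rule describes these libraries and supports nothing further. In a bulk library, fewer cells of a type and less RNA per cell cannot be told apart. List members past the rule in no line, and the genes shared by 2 lines, were picked for mention after their values were seen.

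Most genes did not set 1 line apart. Of the kept genes, 12928 (81.5%) were called neither higher nor lower in any line, and 4651 (29.3%) stayed within 2-fold across all 4. Genes higher in 1 line numbered 414 for 549 (2.61% of kept genes), 808 for A375 (5.1%), 435 for A498 (2.74%) and 287 for H1703 (1.81%). Lower genes numbered 131 for 549 (0.826%), 319 for A375 (2.01%), 245 for A498 (1.55%) and 455 for H1703 (2.87%). H1703 was the 1 line with more lower than higher genes, and A375 had the most genes higher, of which 217 had 0 counts in all other untreated lines. Across genes, the rank correlation of log2 CPM was 0.785 between 549 and A375, 0.852 between 549 and A498, 0.824 between 549 and H1703, 0.795 between A375 and A498, 0.789 between A375 and H1703, and 0.8 between A498 and H1703. Within a line, the untreated and IFN-gamma libraries correlated at 0.955 (549), 0.943 (A375), 0.951 (A498) and 0.985 (H1703). These are correlations over 15855 genes that share a library on each side, and genes are not independent replicates. The A498 and 549 pair had the fewest genes at least 4-fold apart (2325 genes), and A375 and 549 the most (3230 genes).

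The same rule was then applied to the 4 IFN-gamma libraries, which had no part in the first choice. Of the higher genes, 236 of 414 were higher again in 549, 545 of 808 in A375, 305 of 435 in A498 and 209 of 287 in H1703. Over all kept genes, the share higher among IFN-gamma libraries was 1.9% for 549, 4.4% for A375, 3.01% for A498 and 2.03% for H1703. Of the lower genes, 74 of 131 were lower again in 549, 176 of 319 in A375, 129 of 245 in A498 and 302 of 455 in H1703, against shares of 1.07%, 2%, 1.39% and 2.92% of all kept genes in those 4 lines. A gene that IFN-gamma changes unequally between lines can drop out of this count.

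**Figure D1:**
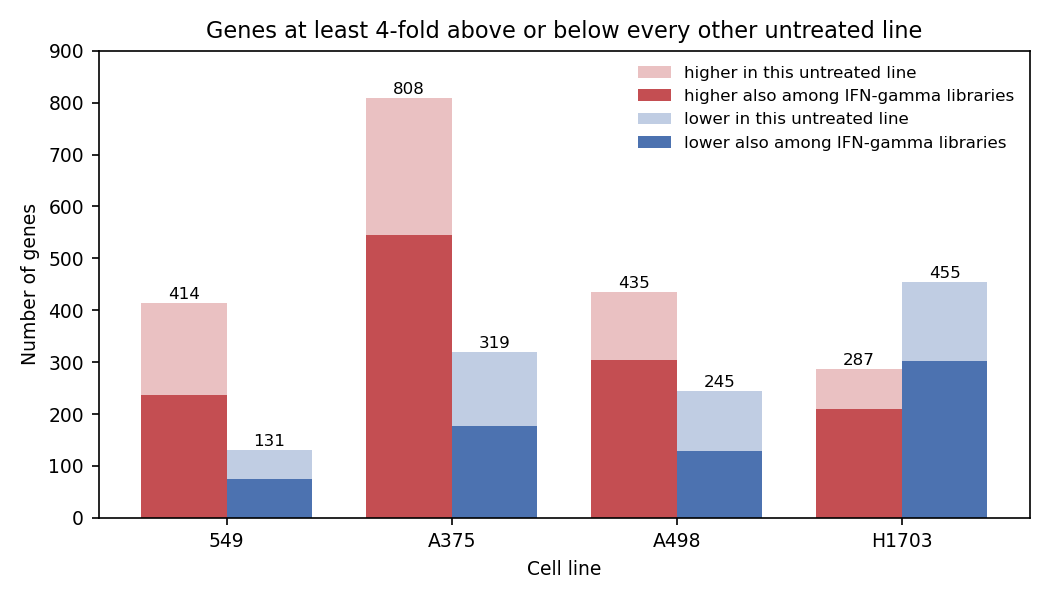
Number of genes at least 4-fold above (red) or below (blue) every other untreated line, by cell line; the dark part of each bar is the number also past the rule among the 4 IFN-gamma libraries. A375 has the tallest red bar (808 genes, 545 of them seen again) and H1703 the tallest blue bar (455 genes, 302 seen again).

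A test became possible over both arms. In an edgeR quasi-likelihood fit of all 8 libraries with line and arm as terms, each line was set against the mean of the other 3, and the spread was the disagreement of a line between its untreated and IFN-gamma library, with 3 residual degrees of freedom. Since nothing labels the 2 libraries as separate replicate cultures of 1 condition, that spread includes unequal responses to IFN-gamma. Of 15342 genes tested at a Benjamini-Hochberg adjusted p of 0.05, the fit called 2329 higher (15.2%) and 1455 lower (9.48%) in 549, and 2917 higher (19%) and 1982 lower (12.9%) in A375. For A498 the calls were 2991 higher (19.5%) and 2039 lower (13.3%), and for H1703 2779 higher (18.1%) and 2472 lower (16.1%). Genes past the 4-fold rule were called in the same direction in 340 of 345 tested for higher in 549, 654 of 659 in A375, 391 of 393 in A498 and 269 of 270 in H1703. For lower genes the calls were 120 of 130, 301 of 318, 232 of 244 and 442 of 453 in those 4 lines. The fit shares the untreated libraries with the rule, and it cannot call a gene lower in 1 of 2 lines that both have 0 counts, so the counts of lower genes are understated. Differences below marked as edgeR are log2 CPM of the line minus the mean of the other 3 over both arms, with the standard error.

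A375 held neural crest genes at high levels. Of 14 listed neural crest and glial genes, 7 were higher in A375, beside 5.1% of all kept genes, and none in another line. SOX10, the neural crest transcription factor, had 437 CPM in A375, against 0, 1.35 and 0 CPM in 549, A498 and H1703. NES, which encodes the intermediate filament nestin, had 859.6 CPM in A375, against 8.97, 1.05 and 0.263 CPM in 549, A498 and H1703. S100B, a calcium-binding protein of Schwann cells and melanocytes, had 922 counts in A375, against 0, 2 and 0 counts in 549, A498 and H1703. SOX10 differed by 10.53 ± 0.58 in A375 (edgeR adjusted p = 1.75e-06). Over both arms, edgeR called 10 of 13 tested higher in A375 (19% of all genes tested) and 2 lower (12.9%). GFRA1 was among the lower ones (-7.90 ± 1.27, edgeR adjusted p = 0.00181). The median log2 difference of the 13 kept members from the mean of the other lines was 4.18 in A375, while the median over all kept genes lay between -0.05 and 0.00 in the 4 lines.

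Of 14 melanocyte pigment genes, 4 were higher in A375, MITF, DCT, RAB38 and TYR, beside 5.1% of all kept genes, and the kept members summed to 564.8 CPM in A375, against 79.3, 89.1 and 74.9 CPM in 549, A498 and H1703. MITF, the master regulator of the melanocyte lineage, had 392 CPM in A375, against 46.2, 55.6 and 4.73 CPM in 549, A498 and H1703, a 7.05-fold excess over the nearest line (95% interval 6.33 to 7.87). DCT, a melanin synthesis enzyme, had 760 counts in A375, against 0, 1 and 0 counts in 549, A498 and H1703. RAB38, a small GTPase of melanosome transport, had 49.6 CPM in A375, against 0.147, 5.26 and 0.263 CPM. The enzyme tyrosinase (TYR) had 18 counts in A375 and 0 elsewhere. PMEL, the melanosome matrix protein, had 20 counts in A375, against 7, 2 and 9 counts in 549, A498 and H1703, and the antigen gene MLANA had 28 counts, against 2, 5 and 1 counts. Both stayed short of the rule. TYRP1 had 2 counts in A375, against 3, 7 and 0 counts in the same lines. The neural crest markers go with the skin label, while TYR, PMEL, MLANA and TYRP1 had at most 28 counts in any line.

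The 12 genes of at least 50 CPM with the largest excess in A375 were MGP, SERPINA3, FCRLA, GAP43, LPL, LOXL4, PRRX1, HAPLN1, TFAP2B, PAGE2, BAALC and FMOD. SERPINA3, a secreted serine protease inhibitor, had 8619 CPM in A375, against 6.91, 3.60 and 0.131 CPM in 549, A498 and H1703, and was 1250-fold above the nearest line (95% interval 937 to 1700). MGP, the matrix Gla protein that inhibits calcification, had 5676 counts in A375, against 1, 1 and 0 counts in 549, A498 and H1703. FCRLA, LPL (lipoprotein lipase), PAGE2 and FMOD (fibromodulin) had 0 counts in every other untreated line. Against 3 counts in 549, their excess in A375 was at least 479-fold, 438-fold, 298-fold and 256-fold in that order. GAP43, a growth cone protein of neurons and Schwann cells, had 312 CPM in A375 and at most 0.150 CPM elsewhere. TFAP2B, a transcription factor of the neural crest, had 527 CPM in A375, against 0, 0.751 and 0 CPM in 549, A498 and H1703. PRRX1, a mesenchymal homeobox factor, had 336 CPM in A375 and at most 0.300 CPM elsewhere.

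Mesenchymal genes mostly went the same way in A375, where 9 of 26 listed members were higher, beside 5.1% of all kept genes. Over both arms, edgeR called 16 of 25 tested higher in A375 (19% of all genes tested) and 2 lower (12.9%). TWIST1, a transcription factor of epithelial-mesenchymal transition, had 179 CPM in A375, against 2.94, 0.300 and 14.98 CPM in 549, A498 and H1703. SNAI2, another factor of that transition, had 64.8 CPM in A375, against 0.441, 1.65 and 0 CPM. The collagen chains COL1A2 and COL6A3 had 47.9 and 50.2 CPM in A375 and at most 0.300 CPM elsewhere. Not all listed collagens went this way. COL1A1 was lower in A375 over both arms (-4.26 ± 0.70, edgeR adjusted p = 0.00142). COL5A1 was higher in A498, with 67.0 CPM there and 10.5 CPM in A375, the nearest line. VIM, which encodes vimentin, had 3460 CPM in A375, against 722, 1152 and 1268 CPM in 549, A498 and H1703, short of the rule but higher in the edgeR fit (1.81 ± 0.19, edgeR adjusted p = 8.35e-05). Epithelial genes were lowest in A375 in 11 of 18 kept members, beside 4252 of all 15855 kept genes. CLDN1, a tight junction claudin, had 1.11 CPM in A375, against 89.3, 96.7 and 39.2 CPM in 549, A498 and H1703. ESRP1, an epithelial splicing factor, ran against the list, with 65 counts in A375, against 0, 2 and 3 counts, past the rule.

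Genes that report the output of the RAS-RAF-ERK (MAPK) cascade were high in A375. Of 22 listed genes, 6 were higher in A375, beside 5.1% of all kept genes, and none in another line. In A375, 15 had their highest level, beside 4246 of all 15855 kept genes, and the median log2 difference was 1.89. The rule called 1 member lower in A375 (2.01% of all kept genes were) and 3 lower in H1703 (2.87%). The A375 member was EPHA2, a receptor tyrosine kinase, with 6.64 CPM there and 36.5 CPM in 549, the nearest line. DUSP6, the phosphatase that switches ERK off, had 515 CPM in A375, against 36.3, 9.61 and 12.6 CPM in 549, A498 and H1703, a 14.2-fold excess over the nearest line (95% interval 12.5 to 16.2). The ERK pathway inhibitor genes SPRY2 and SPRY4 had 112 and 223 CPM in A375, against 6.33 and 3.24 CPM in 549, 3.45 and 5.86 CPM in A498, and 4.47 and 34.4 CPM in H1703. ETV1, an ETS factor stabilised by ERK signalling, had 172 CPM in A375, against 9.27, 23.1 and 12.2 CPM in 549, A498 and H1703. The cytokine genes CXCL8 and LIF completed the 6. DUSP6 differed by 5.20 ± 0.26 (edgeR adjusted p = 1.11e-06), and over both arms 16 of the 22 genes were called higher in A375 (19% of all genes tested) and 2 lower (12.9%). MYC, listed as a further target, had 17.3 CPM in A375, against 24.3, 34.99 and 18.3 CPM in 549, A498 and H1703.

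Cancer-testis antigens, normally made in germ cells and silenced by DNA methylation in other tissues, were a further A375 feature. Of 30 listed genes, 12 were higher in A375 (5.1% of all kept genes were) and 1 in H1703 (1.81%). All 23 kept members had at least 10 counts in A375, against 5, 3 and 10 members in 549, A498 and H1703. A member kept through its A375 counts alone had to reach that minimum there. The median log2 difference in A375 was 4.68. PAGE5 had 1107 counts in A375, against 0, 1 and 0 counts in 549, A498 and H1703, and MAGEC2 had 231 counts in A375 and 0 elsewhere. MAGEA4 was shared, with 416 CPM in A375 and 269 CPM in H1703, against 0 and 0.150 CPM in 549 and A498. MAGEA1 was the H1703 member, with 98.7 CPM in H1703, against 0.147, 7.97 and 0 CPM in 549, A375 and A498. Members of the MAGEA, PAGE, GAGE, XAGE and CT45 families are near-identical copies, and reads may have been split between them.

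Genes lowest in A375 included a neuronal enzyme and detoxification genes. Among genes of at least 50 CPM in each other line, the largest deficits were in PPP2R2C, UCHL1, ALPK2, BASP1, PLCE1 and ALDH1A1. PPP2R2C, a regulatory subunit of protein phosphatase 2A, had 0 counts in A375, against 611, 551 and 928 counts in 549, A498 and H1703, at least 249-fold lower. UCHL1, a ubiquitin hydrolase of neurons, had 1.22 CPM in A375, against 874, 383 and 829 CPM, a 314-fold deficit to the nearest line (95% interval 175 to 631). ALDH1A1, which oxidises retinaldehyde, had 13.2 CPM in A375, against 3706, 2753 and 394 CPM in 549, A498 and H1703.

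**Figure D2:**
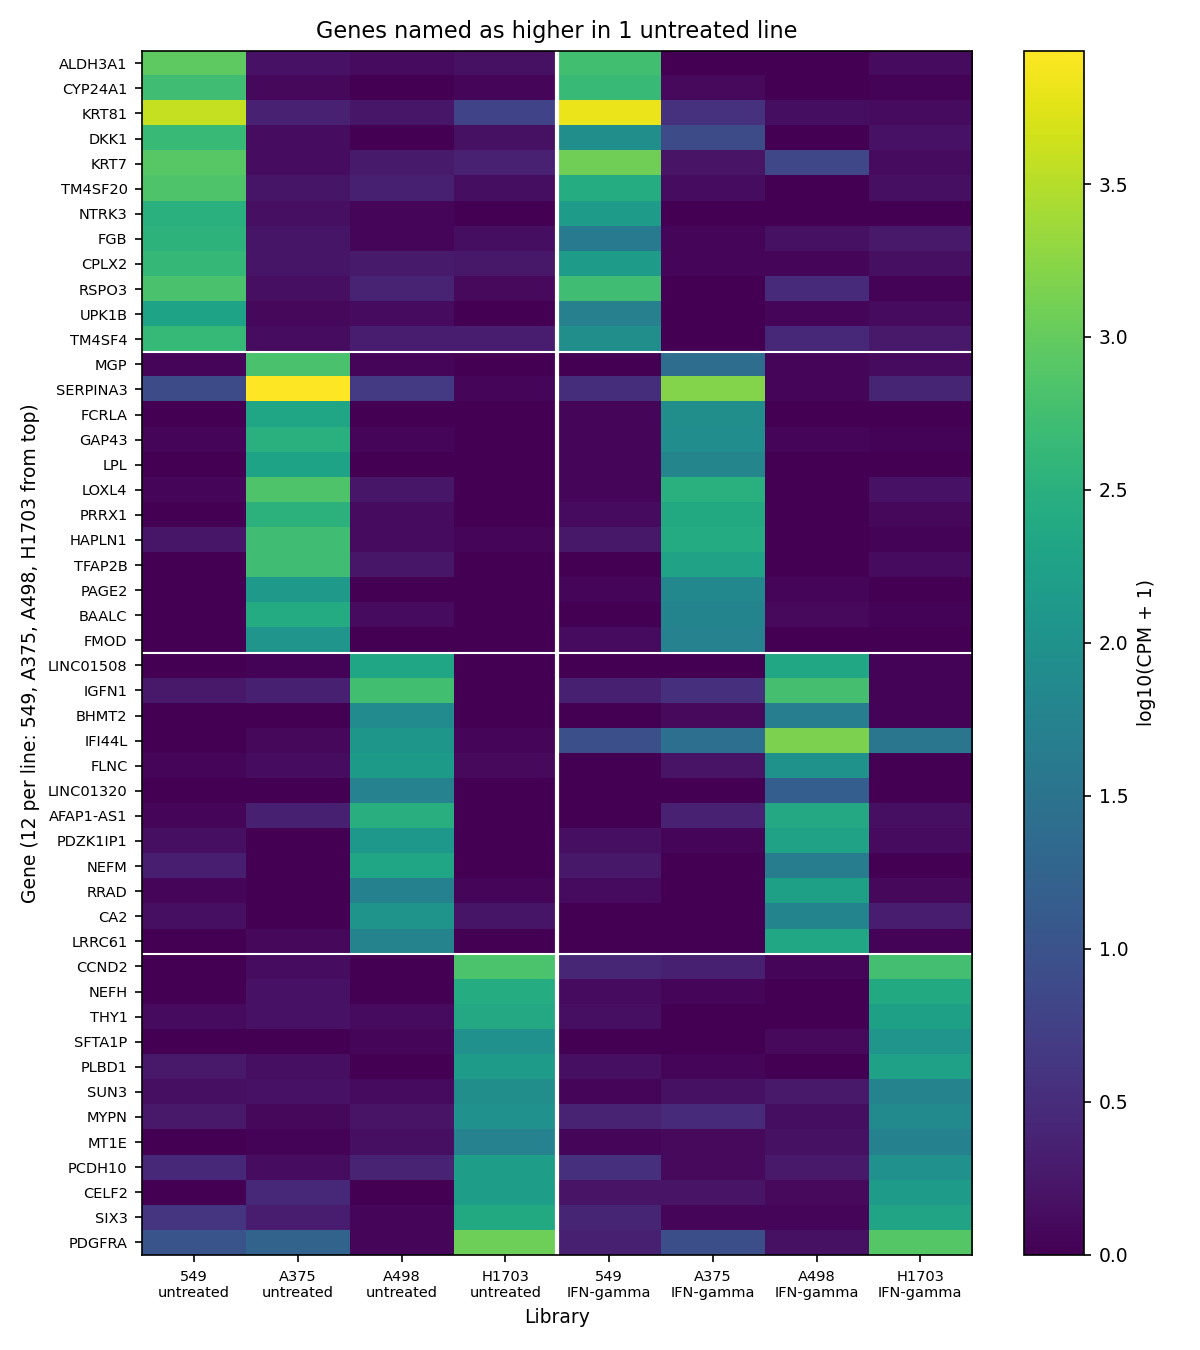
Level of the 12 genes named as higher in each line (rows, in blocks of 12 for 549, A375, A498 and H1703 from the top) in the 4 untreated libraries (left) and the 4 IFN-gamma libraries (right), as log10(CPM + 1), where the colour runs from dark purple at 0 to yellow. Each block is bright in its own line in both arms, and IFI44L of the A498 block has a higher level in the IFN-gamma library than in the untreated library of every line.

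The kidney transcription factors PAX8 and PAX2 were higher in A498. Of 21 renal tubule genes, 4 were higher in A498, beside 2.74% of all kept genes. PAX8, the kidney and thyroid lineage factor, had 233 CPM in A498, against 3.82, 0 and 5.78 CPM in 549, A375 and H1703, and PAX2, its relative in kidney development, had 35.1 CPM, against 6.18, 0 and 4.20 CPM. PAX8 was 40.3-fold above the nearest line (95% interval 29.9 to 55.7) and differed by 7.22 ± 0.37 (edgeR adjusted p = 2.15e-06). CDH6, a cadherin of proximal tubules, had 57.2 CPM in A498, against 7.65, 0.221 and 0.131 CPM in 549, A375 and H1703, and CDH16, the kidney-specific cadherin, had 23 counts, against 2, 0 and 0 counts. The 549 line held 4 other members of the same list past the rule, as many as A498, beside 2.61% of all kept genes. They were HNF4A, GGT1, SLC17A3 and FXYD2. A375 held 3 more past the rule (5.1% of all kept genes were): EMX2 with 81 counts, CUBN with 84 and LRP2 with 54. UMOD, a marker of the thick ascending limb, had 0 counts in all 4 lines.

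Clustered HOX genes, which record position along the body axis, separated A498 from H1703. Of 39 listed genes, 6 were higher in A498, beside 2.74% of all kept genes, namely HOXA7, HOXA9, HOXA10, HOXA11, HOXD10 and HOXD11. In A498, 17 of 35 kept members had their highest level, beside 3857 of all 15855 kept genes. HOXA9 had 207 CPM in A498, against 1.62, 0.553 and 0 CPM in 549, A375 and H1703, a 128-fold excess over the nearest line (95% interval 71.2 to 257), and differed by 8.79 ± 0.32 (edgeR adjusted p = 6.23e-07). HOXA10 had 232 CPM in A498, against 11.03, 34.7 and 0.131 CPM in 549, A375 and H1703. In H1703, 9 of the 39 were lower, beside 2.87% of all kept genes, and 6 of the 9 lie in the HOXB cluster. HOXB7 had 0 counts in H1703, against 384, 621 and 510 counts in 549, A375 and A498, at least 143-fold lower, and HOXB5 had 0 counts, against 251, 260 and 359. HOXC9 had 207 CPM in H1703, against 43.0, 66.4 and 36.8 CPM in 549, A375 and A498, short of the rule but higher in the edgeR fit (1.95 ± 0.20, edgeR adjusted p = 9.87e-05). HOXC4 was higher in A375, with 28.98 CPM, against 3.53, 4.21 and 5.39 CPM in 549, A498 and H1703.

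The 12 genes named as higher in A498 were LINC01508, IGFN1, BHMT2, IFI44L, FLNC, LINC01320, AFAP1-AS1, PDZK1IP1, NEFM, RRAD, CA2 and LRRC61. IGFN1, an immunoglobulin-like muscle protein, had 559 CPM in A498, against 0.883, 1.22 and 0 CPM in 549, A375 and H1703. CA2, a carbonic anhydrase of kidney and other epithelia, had 109 CPM in A498, against 0.441, 0 and 0.657 CPM. PDZK1IP1, a membrane protein of proximal tubules, had 126 CPM, against 0.441, 0 and 0 CPM. BHMT2, a methyltransferase of liver and kidney, had 518 counts in A498 and 0 counts in every other line, at least 176-fold above 3 counts in 549. AFAP1-AS1 is antisense to AFAP1, and the use of strand in counting is not given in the sources used here. The 6 lower genes were RAB34, GSTP1, SNRPN, ZNF655, PLA2G16 and CD9. GSTP1, a glutathione transferase, had 2.10 CPM in A498, against 1742, 822 and 624 CPM in 549, A375 and H1703, a 297-fold deficit to the nearest line (95% interval 177 to 543). RAB34, a small GTPase of cilium formation, had 0 counts in A498, against 1113, 1237 and 884 counts in 549, A375 and H1703. SNRPN, an imprinted splicing protein gene, had 1 count in A498, against 1062, 3209 and 786 counts.

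The 549 line held epithelial junction and keratin genes together with fibrinogen genes. Of 24 epithelial genes, 5 were higher in 549, beside 2.61% of all kept genes, and the median log2 difference of the 18 kept members was 2.61. CDH1, which encodes E-cadherin, had 125 CPM in 549, against 0, 0.150 and 0.131 CPM in A375, A498 and H1703. KRT7 and KRT18, keratins of simple epithelia, had 807 and 3148 CPM in 549, against 0.332 and 40.6 CPM in A375, 0.901 and 467 CPM in A498, and 1.31 and 22.2 CPM in H1703. CDH1 differed by 10.45 ± 0.41 (edgeR adjusted p = 1.08e-06). Of 18 hepatic and endodermal genes, 5 were higher in 549, beside 2.61% of all kept genes. A further 2 were higher in A375 (5.1% of all kept genes were) and 2 in A498 (2.74%). The median over the 15 kept was 2.55 in 549. The fibrinogen chains FGA, FGB and FGG had 101, 351 and 99.3 CPM in 549, and at most 0.664 CPM for any chain in another line. HNF4A, a nuclear receptor of liver, gut and kidney, had 127 CPM in 549, against 0.111, 15.8 and 0.131 CPM in A375, A498 and H1703. ALB, the albumin gene, had 2 counts in 549, against 4, 10 and 7 counts. The plasma protein genes TF and TTR were higher in A375, with 60.5 and 5.42 CPM there and at most 1.20 CPM elsewhere, and AFP and HNF4G were higher in A498, with 34 and 49 counts there.

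The 12 genes named as higher in 549 were ALDH3A1, CYP24A1, KRT81, DKK1, KRT7, TM4SF20, NTRK3, FGB, CPLX2, RSPO3, UPK1B and TM4SF4. ALDH3A1, an aldehyde dehydrogenase, had 913 CPM in 549, against 0.553, 0.300 and 0.526 CPM in A375, A498 and H1703, a 1650-fold excess over the nearest line (95% interval 707 to 5090). CYP24A1, the enzyme that inactivates vitamin D, had 3645 counts in 549, against 2, 0 and 1 counts in A375, A498 and H1703. DKK1, a secreted WNT inhibitor, had 450.3 CPM in 549, against 0.332, 0 and 0.526 CPM, and RSPO3, a secreted WNT amplifier, had 639 CPM, against 0.443, 1.502 and 0.263 CPM. NTRK3, the neurotrophin-3 receptor, had 311 CPM in 549 and at most 0.443 CPM elsewhere. KRT81 belongs to a family of near-identical hair keratins, and its level of 3904 CPM in 549 may include reads of its copies.

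The 6 lower genes of 549 were IFITM3, FAM129A, PCLO, MTAP, COL6A2 and NID1. MTAP, an enzyme of methionine salvage, had 6.77 CPM in 549, against 110.0, 97.3 and 61.4 CPM in A375, A498 and H1703, a 9.07-fold deficit to the nearest line (95% interval 6.69 to 12.6), and differed by -3.48 ± 0.30 (edgeR adjusted p = 3.9e-05). Its neighbour CDKN2A, the gene of the cell cycle inhibitor p16, had 0 counts in 549, against 111, 2 and 2308 counts in A375, A498 and H1703. SMARCA4, a chromatin remodelling ATPase, had 20.6 CPM in 549, against 275, 223 and 66.9 CPM, short of the rule but lower in the edgeR fit (-2.81 ± 0.26, edgeR adjusted p = 6.17e-05). COL6A2 and NID1, both matrix genes, were 6.76-fold and 5.25-fold below the nearest line. Of all 72 genes named by size in the 4 lines, 70 were past the rule again among the IFN-gamma libraries, and the 2 that were not, FAM129A and PCLO, are both in this group. In the IFN-gamma libraries FAM129A had 209 CPM in 549, against 651, 535 and 159 CPM in A375, A498 and H1703.

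Surfactant protein genes were at or near 0 in both lines labelled as lung cancer. The surfactant genes SFTPB and SFTPC had 0 and 2 counts in 549, and 1 and 0 counts in H1703. NKX2-1, the lung lineage factor, had 1 count in 549 and 12 counts in H1703, against 1 and 0 counts in A375 and A498. LAMP3, a lamellar body protein of alveolar cells, had 41 counts in H1703 and 0 counts in the other lines. Of 16 listed alveolar and club cell genes, 4 were kept and 5 had 0 counts in all untreated lines. NKX2-1 and LAMP3 were both past the rule as higher in H1703, beside 1.81% of all kept genes. The median log2 difference of the 4 kept was 1.48 in H1703. ABCA3, a lipid transporter of lamellar bodies, had 80 counts in 549 and 61 in H1703, against 81 in A375 and 12 in A498. It was called lower in A498 (1.55% of all kept genes were). The kept members summed to 14.1 CPM in 549 and 20.9 CPM in H1703, against 12.4 CPM in A375 and 10.1 CPM in A498. KRT5, a squamous keratin, had 0 counts in all 4 lines, where a count of 0 allows up to 3 counts in a library, and KRT14 had 1 count in A375. KRT15, another keratin of stratified epithelium, was higher in A498, with 128 counts, against 5, 5 and 9 counts in 549, A375 and H1703.

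The 12 genes named as higher in H1703 were CCND2, NEFH, THY1, SFTA1P, PLBD1, SUN3, MYPN, MT1E, PCDH10, CELF2, SIX3 and PDGFRA. CCND2, which encodes cyclin D2, had 4997 counts in H1703, against 0, 3 and 0 counts in 549, A375 and A498, a 1980-fold excess over A375 (95% interval 677 to 9600). PDGFRA, a receptor tyrosine kinase for platelet-derived growth factor, had 1159 CPM in H1703, against 9.71, 17.1 and 0.150 CPM in 549, A375 and A498, a 67.6-fold excess (95% interval 57.6 to 79.7). SOX2, a stem cell transcription factor, had 233 CPM in H1703, against 2.21, 3.32 and 3.15 CPM. It was the only 1 of 16 listed squamous genes past the rule in H1703, beside 1.81% of all kept genes higher there. The median of the 4 kept was -0.79 in H1703. TP63 (18 counts) and DSC3 (138 counts) were higher in 549 (2.61% of all kept genes were). CDKN2A had 303 CPM in H1703, against 0, 12.3 and 0.300 CPM in 549, A375 and A498, and its neighbour CDKN2B had 70 counts, against 0 in all 3. PDGFRA differed by 8.52 ± 0.41 (edgeR adjusted p = 2.48e-06) and CDKN2A by 8.71 ± 0.39 (edgeR adjusted p = 2.34e-06). RB1, the pocket protein that p16 acts through, had 56.1 CPM in H1703, against 30.8, 53.2 and 48.2 CPM. MT1E belongs to a family of near-identical metallothioneins, and its reads may be shared.

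The 6 lower genes of H1703 were CD44, S100A11, SPP1, PROCR, PHLDA3 and TGFBI. CD44, the hyaluronan receptor, had 1 count in H1703, against 2048, 5394 and 2698 counts in 549, A375 and A498, a 2290-fold deficit to the nearest line with a 95% interval of 411 to 90600. S100A11, a calcium-binding protein, had 4 counts in H1703, against 5097, 5104 and 5368 counts. SPP1 (osteopontin) and PROCR (the protein C receptor) had 0 counts in H1703 and were at least 217-fold and 216-fold lower. TGFBI, a matrix protein induced by TGF-beta, had 1.05 CPM in H1703, against 702, 337 and 449 CPM in 549, A375 and A498. AXL, a receptor tyrosine kinase, had 0.657 CPM in H1703, against 241, 74.3 and 96.7 CPM, and SMARCA2, the second chromatin remodelling ATPase, had 3.55 CPM, against 69.3, 129 and 253 CPM. CD44 differed by -10.55 ± 0.58 (edgeR adjusted p = 4.26e-06).

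Targets of the hypoxia-inducible factors (HIF) were mostly low in H1703. Of 27 listed genes, 7 were lower in H1703, beside 2.87% of all kept genes, and none higher. In H1703, 16 had their lowest level, beside 3888 of all 15855 kept genes, and the median log2 difference was -0.94. CA12, a membrane carbonic anhydrase, had 0.657 CPM in H1703, against 1153, 63.5 and 1146 CPM in 549, A375 and A498. NDRG1, a stress-response gene, had 18 CPM in H1703, against 991, 713 and 1569 CPM, and SLC2A1, the glucose transporter GLUT1, had 8.54 CPM, against 67.96, 52.7 and 161 CPM. HIF1A, the oxygen-regulated subunit itself, had 48.6 CPM in H1703, against 128, 227 and 317 CPM, short of the rule but lower in the edgeR fit (-2.41 ± 0.26, edgeR adjusted p = 0.000157). Over both arms, edgeR called 15 of the 27 listed genes lower in H1703 (16.1% of all genes tested) and 2 higher (18.1%). ANGPTL4 was among the higher ones (1.45 ± 0.33, edgeR adjusted p = 0.00797). In A498, 1 listed gene was higher (2.74% of all kept genes were), the prolyl hydroxylase EGLN3. It had 117 CPM in A498, against 27.8, 0.774 and 0.526 CPM in 549, A375 and H1703. CA9, a further carbonic anhydrase, was the 1 listed gene higher in 549, beside 2.61% of all kept genes. It had 47.1 CPM there, against 2.66, 3.30 and 0 CPM in A375, A498 and H1703.

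GDF15, CDKN1A and PHLDA3 were lower in H1703. GDF15, a stress cytokine, had 3.81 CPM in H1703, against 262, 2642 and 1352 CPM in 549, A375 and A498. CDKN1A, the cell cycle inhibitor p21, had 13.7 CPM in H1703, against 68.7, 142 and 229 CPM. PHLDA3, an AKT inhibitor, had 0 counts in H1703, against 467, 1485 and 1129 counts, at least 174-fold lower. GDF15 differed by -8.49 ± 0.45 (edgeR adjusted p = 3.73e-06) and CDKN1A by -2.92 ± 0.27 (edgeR adjusted p = 5.88e-05).

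**Figure D3:**
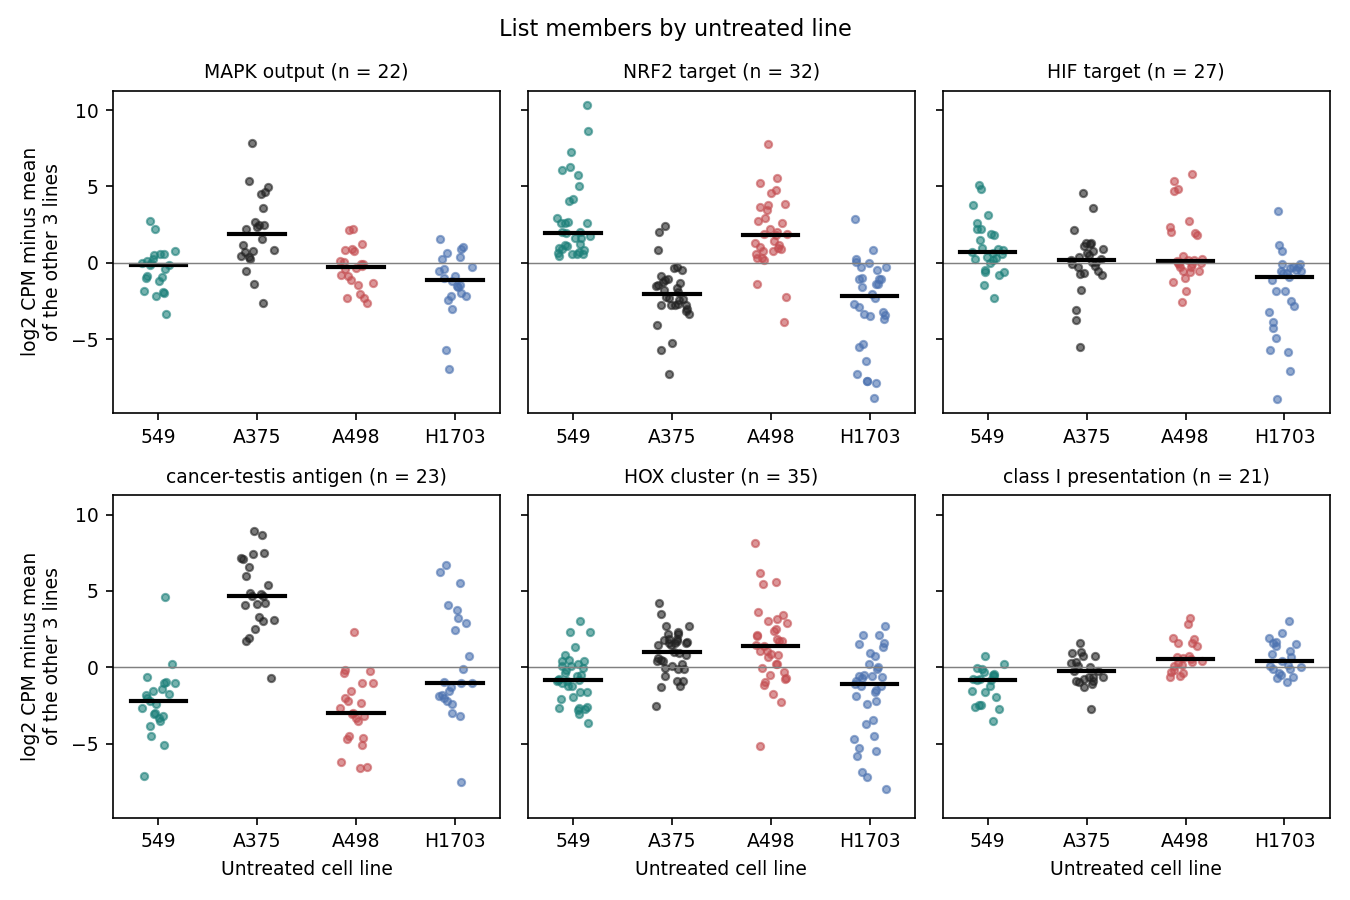
Log2 CPM of each kept list member in a line minus the mean of the other 3 untreated lines, for 6 gene lists, where a point is a gene, the colour marks the line and the bar is the median. The median of MAPK output genes is 1.89 in A375, that of NRF2 targets is 1.97 in 549 and 1.84 in A498, that of HIF targets is -0.94 in H1703, and that of cancer-testis antigens is 4.68 in A375.

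Targets of NRF2, the transcription factor that raises antioxidant and detoxification enzymes, split the lines into 2 pairs. The median log2 difference of the 32 genes was 1.97 in 549 and 1.84 in A498, against -2.07 in A375 and -2.15 in H1703, and their summed level was 30710 CPM in 549 and 22090 CPM in A498, against 3884 CPM in A375 and 6882 CPM in H1703. AKR1B10, an aldo-keto reductase, had 2189 CPM in 549 and 2901 CPM in A498, against 0.885 CPM in A375 and 0.657 CPM in H1703. ABCC3, a conjugate export pump, had 277 and 175.7 CPM in 549 and A498, against 0.332 and 0.394 CPM in A375 and H1703. In all, 11 of the 32 were at least 4-fold higher in both 549 and A498 than in both other lines, beside 2.09% of all kept genes. Among them were UGDH, NR0B1, CYP4F11 and the AKR1C genes, whose close sequence likeness may split reads between AKR1C1, AKR1C2 and AKR1C3. GPX2, a glutathione peroxidase, and ALDH3A1 were higher in 549 alone, with GPX2 at 208 CPM in 549, against 0.221, 0.451 and 0.131 CPM in A375, A498 and H1703. HMOX1, the haem-degrading enzyme, ran against the list, with 377 CPM in H1703, against 121, 10.3 and 115 CPM in 549, A375 and A498. NFE2L2, which encodes NRF2, had 225 CPM in 549 and 347 CPM in A498, against 223 CPM in A375 and 118 CPM in H1703, and KEAP1, its inhibitor, had 43.8 and 56.8 CPM, against 41.8 and 49.4 CPM. AKR1B10 differed by 7.35 ± 0.31 in 549 (edgeR adjusted p = 6.78e-07) and by 7.33 ± 0.32 in A498 (edgeR adjusted p = 9.53e-07). Over both arms, the fit called 22 of the 32 higher in 549 (15.2% of all genes tested) and 20 higher in A498 (19.5%), and 19 lower in A375 (12.9%) and 20 lower in H1703 (16.1%).

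NRF2 binds the antioxidant response element, and the letters TGACNNNGC on either strand were looked for in the 250 bases before each start in RefSeq promoters (GRCh38.p14). They were present in 3013 of 27305 promoters (11%), in 7 of the 22 NRF2 list members with a promoter in that set (31.8%) and in 7 of 38 antiviral list members (18.4%). Windows around the match nearest the start are shown for 3 listed genes that were high in A498 and 549, with the match in capitals and 10 bases on either side, read along the gene's own strand. They are TXNRD1 (thioredoxin reductase, chr12:104215670-104215698, plus strand), GCLM (a subunit of glutathione synthesis, chr1:93909446-93909474, minus strand) and CYP4F11 (a cytochrome P450, chr19:15935005-15935033, minus strand). A match describes the letters of that window and is not evidence of binding.
TXNRD1: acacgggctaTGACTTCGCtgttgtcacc
GCLM: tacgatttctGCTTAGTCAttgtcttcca
CYP4F11: ctgtgcccatGCTGTGTCAccctgagctg
CYP4F11 had 49.4 CPM in 549 and 62.0 CPM in A498, against 0.111 CPM in A375 and 0.657 CPM in H1703. GCLM had 228 and 565 CPM in 549 and A498, against 42.0 and 82.6 CPM in A375 and H1703, and TXNRD1 had 648 and 1023 CPM in 549 and A498, against 114 and 752 CPM in A375 and H1703, so that TXNRD1 set A375 apart and not H1703.

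Other pairs of lines also shared genes at least 4-fold above both remaining lines, a comparison added after values were seen. The 549 and A498 pair shared the most, with 331 genes (2.09% of kept genes), then A375 and A498 with 229 (1.44%), 549 and H1703 with 159 (1%), A375 and H1703 with 146 (0.921%), 549 and A375 with 145 (0.915%), and A498 and H1703 with 64 (0.404%). Among the IFN-gamma libraries, 209, 156, 95, 96, 71 and 34 of these passed the same rule in that order. The 549 and A498 genes included 6 of 24 epithelial genes and 5 of 21 renal genes. KRT8, the keratin partner of KRT18, had 1765 and 564 CPM in 549 and A498, against 1.66 and 2.63 CPM in A375 and H1703. A375 and A498 shared SPARC, a matrix glycoprotein with 1845 and 689 CPM, against 0.736 and 0 CPM in 549 and H1703. A375 and H1703 shared 8 of 30 cancer-testis genes and MCAM, an adhesion molecule with 226 and 128 CPM, against 2.65 and 1.35 CPM in 549 and A498. 549 and A375 shared CHCHD10 and C22orf15, which lie side by side and may share reads. A498 and H1703 shared ERAP2, a peptide-trimming aminopeptidase with 71.6 and 65.0 CPM, against 1.91 and 2.99 CPM in 549 and A375. The 2 lung cancer lines thus shared fewer such genes than 549 and A498 did.

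**Figure D4:**
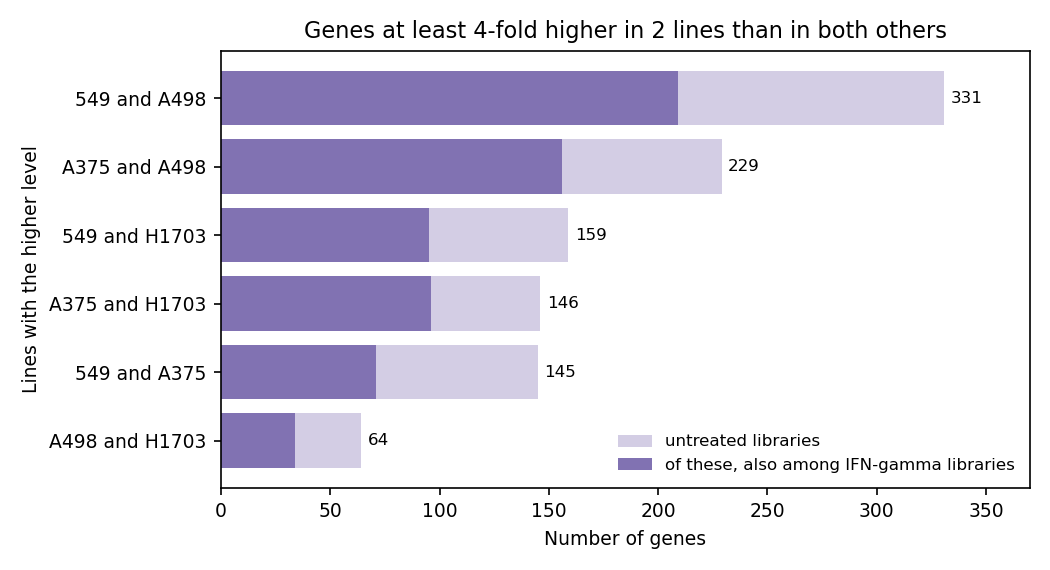
Number of genes at least 4-fold higher in both untreated lines of a pair than in both other lines (pale bars) and how many of them were also so among the IFN-gamma libraries (dark bars), by pair. The pair of 549 and A498 is longest (331 genes, 209 seen again) and that of A498 and H1703 shortest (64 genes, 34 seen again).

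Basal interferon-stimulated genes were highest in A498 and lowest in 549. Of 49 listed antiviral genes, 10 were higher in A498 (2.74% of all kept genes were), 1 in A375 (5.1%) and none in 549 or H1703. In A498, 32 of the 48 kept had their highest level, beside 3857 of all 15855 kept genes. In 549, 6 were lower (0.826% of all kept genes were) and 25 had their lowest level, beside 3337 of all 15855 kept genes. Lower members numbered 1 in A375 (2.01% of all kept genes were lower there), 1 in A498 (1.55%) and 2 in H1703 (2.87%). The median log2 difference was 1.44 in A498, against -1.32 in 549, -0.18 in A375 and -0.04 in H1703. The summed level of the list was 2586 CPM in A498, against 987.7 CPM in 549, 2092 CPM in A375 and 2141 CPM in H1703, where IFITM2 and IFITM3 alone had 358 and 636 CPM. Of the 48, 33 had the same highest line among the IFN-gamma libraries, and of all kept genes 10317 did.

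The A498 genes included several with almost no transcripts elsewhere. IFI44L, an antiviral gene of the IFI44 pair, had 786 counts in A498, against 0, 2 and 1 counts in 549, A375 and H1703, a 533-fold excess over A375 (95% interval 147 to 4410). IFI27, a mitochondrial antiviral protein, had 85.6 CPM in A498, against 0.736, 0.774 and 1.97 CPM in 549, A375 and H1703. MX1, a GTPase that blocks influenza viruses, had 61.3 CPM in A498, against 0.147, 1.99 and 1.05 CPM. The other 7 were IFI44, OAS2, BST2, SAMD9L, IRF7, EPSTI1 and TRIM22, at 13.97 to 31.4 CPM in A498. BST2, the tether that holds budding virus at the cell surface, had 27.0 CPM in A498, against 0, 1.88 and 0.131 CPM in 549, A375 and H1703. IRF7, a factor that amplifies interferon production, had 93 counts in A498, against 18, 29 and 0 counts. IFITM2 was lower in A498, with 6.01 CPM, against 106, 34.96 and 358 CPM in 549, A375 and H1703.

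In 549 the lower genes were IFITM1, IFITM3, IFIT2, IFIT3, IFIH1 and DHX58. IFITM3, which blocks virus entry at endosomes, had 7 counts in 549, against 6404, 2075 and 4841 counts in A375, A498 and H1703, a 303-fold deficit to the nearest line (95% interval 147 to 754). IFIT3, an RNA-binding antiviral protein, had 0.883 CPM in 549, against 17.9, 49.3 and 9.46 CPM. OAS1, which makes the activator of RNase L, ran the other way, with 41.3 CPM in 549, against 2.10, 19.5 and 1.05 CPM. MX2, which restricts HIV, was the A375 member, with 1030 counts in A375, against 0, 1 and 0 counts in 549, A498 and H1703.

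**Figure D5:**
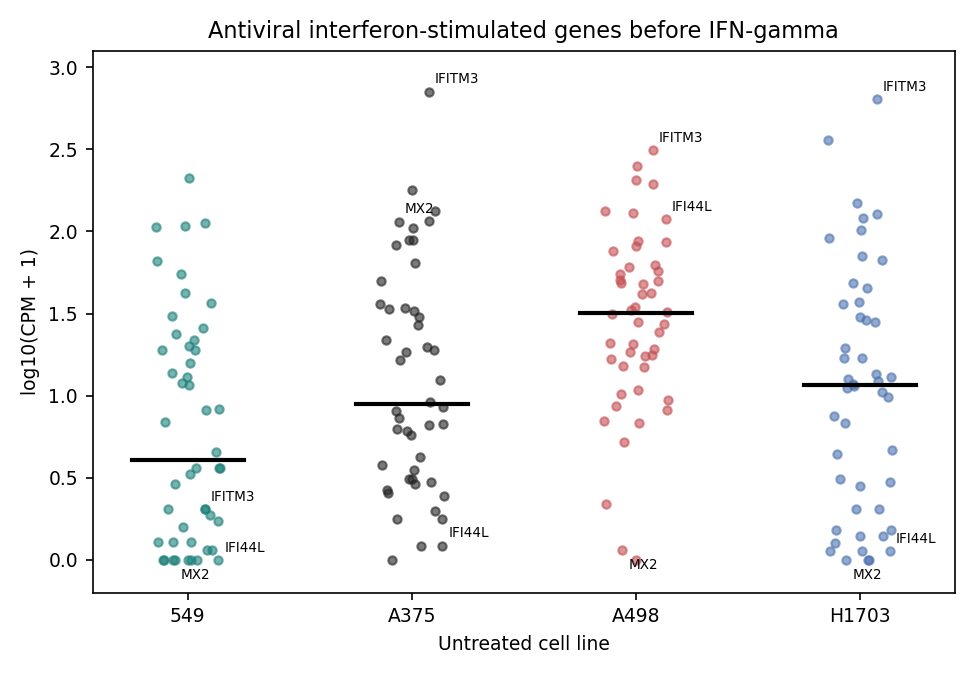
Level of the 48 kept antiviral interferon-stimulated genes in each untreated line, as log10(CPM + 1), where a point is a gene, the bar is the median and 3 genes are labelled. Points of A498 are shifted upward, IFITM3 is near the bottom in 549 (1.03 CPM) and at the top in A375 (708.5 CPM), and IFI44L is high in A498 alone (118 CPM).

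Over both arms, edgeR called 44 of 49 antiviral genes higher in A498 (19.5% of all genes tested) and 1 lower (13.3%). In 549 it called 24 lower (9.48%) and none higher. These averages include the IFN-gamma libraries, where the same genes respond. IFI44L differed by 7.30 ± 0.51 in A498 (edgeR adjusted p = 1.02e-05) and MX1 by 7.63 ± 0.58 (edgeR adjusted p = 1.64e-05). IFITM3 differed by -7.18 ± 0.81 in 549 (edgeR adjusted p = 0.000217).

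The interferon-stimulated response element holds the letters TTTC on either side of any 2 bases, which were looked for on either strand in the same promoters. They were present in 839 of 27305 promoters (3.07%), in 22 of the 38 antiviral list members with a promoter in that set (57.9%), in 5 of 7 of those higher in A498 (71.4%), and in 2 of 22 NRF2 list members (9.09%). The 5 windows are shown because their genes carry the A498 difference, with the match nearest the start in capitals and the bases around it in lower case. They lie at chr1:78620365-78620394 on the plus strand (IFI44L), chr1:78649761-78649788 on the plus strand (IFI44), chr14:94110631-94110660 on the plus strand (IFI27), chr19:17405735-17405764 on the minus strand (BST2) and chr13:42992272-42992301 on the minus strand (EPSTI1) of GRCh38.p14.
IFI44L: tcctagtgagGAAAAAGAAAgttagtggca
IFI44: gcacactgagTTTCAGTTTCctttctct
IFI27: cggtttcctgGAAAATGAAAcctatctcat
BST2: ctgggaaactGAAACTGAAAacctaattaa
EPSTI1: ctgattctgaGAAACCGAAActcagctgtt
All but that of IFI44 carry the match on the other strand. IFI44L, IFI27 and BST2 hold 2 matches each, which may overlap. The MX1 and SAMD9L promoters held no match, which says only that these letters are not in those windows.

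Interferon genes themselves were not detected at a level that separated the lines. IFNB1, IFNL2, IFNL3 and IFNK had 0 counts in all 4 untreated libraries, which allows up to 3 counts in each, and IFNL1 had 1 count in A498. IFNE, an epithelial type I interferon, had 16 counts in A498, against 5, 2 and 9 counts in 549, A375 and H1703. Sensors that feed interferon production differed more. TMEM173, the adaptor STING, had 0 counts in 549, against 164, 189 and 38 counts in A375, A498 and H1703, and differed by -10.07 ± 0.92 (edgeR adjusted p = 0.000118). MB21D1, the DNA sensor cGAS that acts upstream of STING, had 143 counts in H1703, against 7, 0 and 27 counts in 549, A375 and A498. TLR3, a sensor of double-stranded RNA, had 10.8 CPM in A498, against 0.588, 1.11 and 2.23 CPM in 549, A375 and H1703. AIM2, the DNA sensor of an inflammasome, had 142 CPM in A375, against 0, 0.601 and 0 CPM, and IFI16, its relative, had 884 CPM in A375, against 0.588, 189.7 and 0 CPM in 549, A498 and H1703. Of 17 receptor and signalling genes, 1 passed the rule, as lower in A375 (2.01% of all kept genes were). It was PTPN6, the phosphatase SHP-1, with 0 counts in A375, against 84, 53 and 15 counts.

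Genes known best as targets of IFN-gamma also had their highest untreated level in A498 for 11 of 19 kept members, with a median log2 difference of 1.84. Of all 15855 kept genes, 3857 were highest there. Of the 25 listed, 3 were higher in A498 (2.74% of all kept genes were) and 1 in H1703 (1.81%). In 549, 1 was lower (0.826% of all kept genes) and in H1703 also 1 (2.87%). APOL1, the trypanosome lytic factor, had 557 CPM in A498, against 16.9, 3.76 and 3.42 CPM in 549, A375 and H1703. GBP1, a guanylate-binding GTPase, had 54.5 CPM in A498, against 2.50, 4.76 and 3.81 CPM, and APOL3 had 7.21 CPM, against 0, 1.11 and 1.05 CPM. SOCS3, a feedback inhibitor of JAK signalling, was higher in H1703, with 286 CPM, against 47.4, 27.0 and 71.3 CPM in 549, A375 and A498. ICAM1, an adhesion molecule, had 129 CPM in A375 and 35.6 CPM in A498, against 0.736 CPM in 549 and 0.263 CPM in H1703. CXCL9 and CXCL10, chemokines made after IFN-gamma, had at most 1 and 8 counts in any untreated library.

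Antigen presentation genes differed in class II more than in class I. Of 13 class II genes, 7 were higher in A375, beside 5.1% of all kept genes, and none in another line. Lower members numbered 2 in 549 (0.826% of all kept genes were lower there) and 2 in H1703 (2.87%). The median log2 difference was 3.62 in A375. CD74, the invariant chain, had 92.4 CPM in A375, against 0, 4.96 and 0 CPM in 549, A498 and H1703, and HLA-DRA had 50.4 CPM, against 0, 5.56 and 0 CPM. CIITA, the class II master regulator, had 6 counts in A375, against 0, 11 and 1 counts in 549, A498 and H1703. Over both arms it was called higher in A375 (4.32 ± 0.59, edgeR adjusted p = 0.000473) and in A498 (3.26 ± 0.64, edgeR adjusted p = 0.0043). Those CIITA averages include the IFN-gamma libraries and do not describe the untreated level alone. Of 16 listed markers of leukocytes, endothelium and blood, 14 were below the minimum of 10 counts in all 4 lines, 8 had 0 counts in all untreated lines, and the kept members summed to 5.42 CPM in A375, against 4.71, 0.901 and 0 CPM in 549, A498 and H1703. PTPRC, the leukocyte antigen CD45, had 33 counts in A375, against 0, 4 and 0 counts, and was past the rule. CD14, a monocyte receptor, had 16 counts in A375, against 32, 2 and 0 counts, and CD3E, a T cell receptor subunit, had 0 counts in all 4. KDR and FLT1, growth factor receptors of endothelium outside that list, had 53 and 96 counts in A375 and were past the rule. The part of such markers in the class II result was not tested.

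Of 22 class I genes, the sole member past the rule was NLRC5, higher in A498 (2.74% of all kept genes were). NLRC5, the class I transactivator, had 9.16 CPM in A498, against 0.883, 1.33 and 1.05 CPM in 549, A375 and H1703. The 549 line had the lowest level in 11 of 21 kept members, beside 3337 of all 15855 kept genes. B2M, the class I light chain, had 289.8 CPM in 549, against 1168, 2077 and 571 CPM in A375, A498 and H1703, and over both arms it was lower in 549 (-1.42 ± 0.32, edgeR adjusted p = 0.0118). H1703 had the highest level of the peptide transporter genes: TAP1 had 61.8 CPM in H1703, against 17.4, 16.4 and 27.9 CPM in 549, A375 and A498, and TAP2 had 184 CPM, against 29.7, 77.8 and 48.8 CPM. TAP1 differed by 1.47 ± 0.23 in H1703 (edgeR adjusted p = 0.00119). The B2M and TAP1 differences over both arms include the IFN-gamma libraries and do not describe the untreated level alone. HLA genes are close copies of each other and vary between people, so their counts may depend on how reads were assigned.

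Genes of basic functions did not separate the lines by the rule. None of 36 cell cycle genes, 32 ribosomal protein genes or 25 housekeeping genes was called higher or lower in any untreated line. Cell cycle genes had medians of 0.44 in H1703, against -0.06, 0.00 and -0.41 in 549, A375 and A498, and FOXM1, a mitotic transcription factor, had 189 CPM in H1703, against 50.6, 56.9 and 61.3 CPM. In the edgeR fit 19 of the 36 were higher in H1703 (18.1% of all genes tested were), and FOXM1 differed by 2.16 ± 0.24 (edgeR adjusted p = 0.000167). The median ribosomal protein gene lay within 0.17 of the mean of the other lines on the log2 scale in every line.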

How the data were processed

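RNA was measured in 8 libraries, 1 per line and arm, extracted with TRIzol, per the labels' protocols. Per the file headers, the authors deposited raw read counts per gene for every library, and beside them log2 values that the authors had normalized. Bowtie2, edgeR and hg19 are named in the submitters' processing notes, with the gene annotation, counting tool and use of strand not given in the sources used here. The labels name both a stranded poly(A) kit and a 3′ kit, so levels were not compared between genes. The table held 25737 rows for 24462 symbols, and the counts of 286 symbols on several rows were summed.

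The counts were scaled by TMM over the 4 untreated libraries. Genes with at least 10 counts in 1 untreated library were kept, and log2 CPM used a prior count of 2. Line differences over both arms came from edgeR 4.0.16 (R 4.3.3), with limma 3.58.1 and DESeq2 1.42.0 as alternatives, at an adjusted p of 0.05 over all genes tested. Scripts were tested on simulated data. Per line, the text names the 12 genes with the largest excess among those with at least 50 CPM there, and the 6 with the largest deficit among those with at least 50 CPM in each other line, leaving out 107 genes (XIST and Y-linked). It further names members of 30 gene lists that pass the rule and the defining members of each list. Members and lists were chosen with earlier results of these data known. Promoter sequences came from RefSeq. Alternatives covered scaling, filter, prior count, fold, reference, tool and lines left out. Some genes and 1 gene list are not reported here.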

Additional observations from a re-analysis of the deposited data

How the results depend on the processing

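Of the counts of genes per line or pair, 193 of their recomputed values stayed within 1.5 times the main count and 51 moved beyond it. Values of single genes and lists stayed in 1129 cases, moved in 55, lost the threshold in 3 and reversed in 1. All moved counts below follow from how the setting was built (a stricter or looser fold, reference, filter or prior count, or fewer lines), except those without the arm term, whose cause was not tested. With a minimum of 50 counts, 280 genes were higher in A498 and 177 in H1703. With a prior count of 0.5, 261 genes were lower in 549, 484 in A375 and 451 in A498, 229 were higher in both A375 and H1703, and 110 in both A498 and H1703. With a prior count of 5, 82 were lower in 549 and 151 in A498, 104 were higher in both 549 and H1703, and 36 in both A498 and H1703. At 8-fold, 236, 477, 200 and 136 genes were higher and 58, 149, 116 and 244 lower in 549, A375, A498 and H1703, and the pairs held 58 (549 and A375), 184 (549 and A498), 67 (549 and H1703), 109 (A375 and A498), 66 (A375 and H1703) and 21 genes (A498 and H1703). Against the mean of the other 3 lines, 1185, 1500, 1210 and 850 genes were higher and 818, 1143, 1007 and 1541 lower in 549, A375, A498 and H1703. Leaving out 1 other untreated line at a time gave, for 549, 607 (without A375) to 834 (without A498) higher genes and 241 (without A375) to 428 (without H1703) lower ones. For A375 it gave 1019 to 1106 higher genes and 456 (without 549) to 751 (without H1703) lower ones. For A498 it gave 554 (without H1703) to 843 (without 549) higher genes and 445 (without H1703) to 470 (without A375) lower ones. For H1703 it gave 415 (without A498) to 527 (without 549) higher genes and 672 (without A498) to 873 (without A375) lower ones. Over both arms, leaving out a line gave 1973 to 2399 genes called higher for 549, 2467 to 2809 for A375, 2363 to 3128 for A498 and 2253 to 2857 for H1703, and 1654 to 1732, 1873 to 1993, 1643 to 2419 and 2330 to 2802 called lower in those 4 lines. Without the arm term, edgeR called 813 genes lower in 549 and 1342 in A498. In the IFN-gamma libraries FAM129A reversed, with a log2 deficit of -0.39 in 549, which places it above the lowest other line, and PCLO kept a deficit of 1.14. No scaling shifted the median gene by more than 0.098 on the log2 scale (H1703, library size alone). Depth limits genes with few counts, where 1 library gives wide intervals. The labels give no replicate numbers within a line and arm, so replicates could not be paired. In the fit over both arms, the line term joined the untreated and IFN-gamma library of each line, and arm was the other term.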

Other observations

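Of 39 listed receptor tyrosine kinase genes, 29 had at least 10 counts in 1 or more untreated libraries, and the rule called 4 higher and 4 lower in A375, 2 higher and 3 lower in H1703, 1 higher in 549 and 1 lower in A498. Over all kept genes it called 5.1% higher and 2.01% lower in A375, 1.81% and 2.87% in H1703, 2.61% higher in 549 and 1.55% lower in A498. EGFR, the epidermal growth factor receptor, had 25.3 CPM in A375, against 167, 161 and 129 CPM in 549, A498 and H1703, and was lower over both arms (-2.34 ± 0.25, edgeR adjusted p = 9.35e-05). FGFR1, a fibroblast growth factor receptor, had 23.9 CPM in A375, against 470.2, 138 and 298 CPM. KDR and FLT1, receptors for vascular endothelial growth factor, had 53 and 96 counts in A375, against 0 and 0 counts in 549, 0 and 0 in A498, and 0 and 5 in H1703. IGF1R, the insulin-like growth factor receptor, had 2.50 CPM in H1703, against 153, 112 and 12.2 CPM in 549, A375 and A498.

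Inflammatory and secretory genes formed separate small groups. Of 22 listed NF-kB and inflammatory genes, 5 were higher in A375 (5.1% of all kept genes were), 2 in 549 (2.61%) and 2 in A498 (2.74%). None was higher in H1703, where 2 were lower, beside 2.87% of all kept genes. CXCL8, the neutrophil chemokine, had 576.5 CPM in A375, against 10.9, 5.11 and 0 CPM in 549, A498 and H1703. CXCL5, a related chemokine, had 697 counts in 549, against 7, 1 and 2 counts in A375, A498 and H1703. IL32, an inflammatory cytokine, had 73.1 CPM in A498, against 7.65, 1.44 and 2.89 CPM in 549, A375 and H1703. CHGA, a granule protein of neuroendocrine cells, had 64.6 CPM in A498, against 1.91, 0.221 and 0.657 CPM in the same lines. It was the only 1 of 11 listed neuroendocrine genes past the rule in A498, beside 2.74% of all kept genes called higher there. The median log2 difference of the 9 kept was -1.88 in A498, and 4 had their lowest level there. Over both arms, edgeR called 3 of 8 tested higher in A498 (19.5% of all genes tested) and 4 lower (13.3%). Of 15 listed targets of the growth regulator YAP, 1 was higher in 549 (2.61% of all kept genes were) and 1 in A375 (5.1%). Lower members numbered 3 in A375 (2.01% of all kept genes), 2 in A498 (1.55%) and 1 in H1703 (2.87%). ANKRD1 had 51.6 CPM in 549, against 0.774, 5.11 and 1.05 CPM in A375, A498 and H1703. AMOTL2 had 2.66 CPM in A375, against 69.4, 150.5 and 130.1 CPM in 549, A498 and H1703. AMOTL1 ran the other way, with 162.5 CPM in A375 and 38.25 CPM in 549, the nearest line, and was lower in A498.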
